A study of Mus musculus with 5 samples.

Results

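The 7 integrin genes whose chains take part in binding the arginine-glycine-aspartate (RGD) sequence of fibronectin, vitronectin and related proteins are the alpha chain genes Itga5, Itga8 and Itgav and the beta chain genes Itgb3, Itgb5, Itgb6 and Itgb8. They were taken by symbol, 7 of 27843 genes in the count table, and 6 of them passed the filter on low counts and were tested among 15874 genes. RNA was read from lymphatic endothelial cells (LECs), which line the lymph channels, sorted from mouse lymph nodes as CD45- TER119- CD31+ podoplanin+ cells. The 3 control libraries came from C57BL/6 mice that carried floxed alleles of the RANKL gene (Rankl flox/flox), and the 2 knockout libraries from mice that carried Ccl19 Cre with the same floxed alleles. All mice were 8 weeks old, and the study asked which LEC genes depend on RANKL, a cytokine of the TNF family, made by stromal cells. The Cre is driven by Ccl19, a gene of lymph node stromal cells, so the deletion is not meant to lie in the sorted cells. Nothing in the labels says how many animals went into a library or which libraries share a litter, so p-values measure the spread between these 5 libraries.

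An integrin is a pair of 1 alpha and 1 beta chain that spans the cell membrane and ties the matrix outside to the actin skeleton inside. The Itga5 product pairs with the Itgb1 product to form the main fibronectin receptor of endothelium. The Itgav product pairs with the products of Itgb1, Itgb3, Itgb5, Itgb6 or Itgb8, and the Itga8 product pairs with that of Itgb1 to bind nephronectin. Pairs of Itgav with Itgb6 or Itgb8 are known for releasing active TGF-beta from its latent complex. Because a chain reaches the surface only with a partner, Itgb1 and Itga2b, the other alpha partner of Itgb3, are given beside the 7 chains.

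Library totals were 52839375 to 70171307 counts. Levels are given as CPM, the reads of a gene relative to the TMM-scaled library size, and 1 CPM stood for 52.0 to 71.0 reads. Tnfsf11, which encodes RANKL, had 27, 13 and 9 reads in controls 1, 2 and 3 and 9 and 0 reads in knockouts 1 and 2, and as the deletion is aimed at other cells this does not check the genotype. All 10 lymphatic identity markers were detected, with a summed level of 9830 to 10922 CPM in controls and 10319 to 12312 CPM in knockouts. Lyve1, Mmrn1 and Pecam1 were the most abundant of them. Lyve1 stood at 4556, 4321 and 4717 CPM in controls and 2441 and 3663 CPM in knockouts, both below every control. Its log2 fold change was -0.57 ± 0.18 (SE) and was not called (edgeR adjusted p = 0.11). Mmrn1 went the other way, from a mean of 1375 to 4043 CPM, so the sum does not describe single markers. Of the 10, 5 had a log2 fold change above 0 and 5 below. By edgeR 2 of the 10 were called higher and 1 lower (30% called, against 7.24% of all tested genes). Prox1, the transcription factor that defines LECs, fell 1.68-fold and Mmrn1 rose 2.94-fold. The chemokine gene Ccl21a rose 13.8-fold, with 661 CPM in knockout 1 and 142 CPM in knockout 2. Of 12 blood endothelial markers edgeR called 8 higher in the knockout and 0 lower, against 3.25% and 3.99% of all tested genes. At an unadjusted edgeR p under 0.05, where 26.4% of all genes lay, these counts were 10 and 0. DESeq2, which called 17.1% of all genes, also gave 10 and 0. Plvap, Nos3 and Emcn were the most abundant of these 12 markers. The knockout libraries also differed from each other in transcripts of other cells. Summed over 15 fibroblast and mural markers, knockout 1 stood at 1136 CPM against 531 CPM in knockout 2 and 357 to 535 CPM in controls, and over 14 epithelial markers it stood at 54.5 CPM against 15.1 CPM and 16.2 to 36.7 CPM. The largest member of the fibroblast and mural sum was Dcn, which was not called. It stood at 692 CPM in knockout 1, 332 CPM in knockout 2 and 217 to 325 CPM in controls.

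Of the 7 chains, Itgb5 alone passed the test and rose 2.77-fold. Itgav, Itga5, Itga8, Itgb3 and Itgb8 did not pass, and Itgb6 was at or below 1 read in each library. None fell by edgeR after adjustment, where 7.24% of all tested genes were called in either direction, 3.25% higher and 3.99% lower. At an unadjusted edgeR p under 0.05, where 26.4% of all tested genes lay, 1 was higher (Itgb5) and 1 lower (Itgav). DESeq2, which called 17.1% of all tested genes, called the same 2. In 5 of the 6 tested chains both knockout libraries lay on one side of all controls (Itga5, Itgb5 and Itgb8 above, Itga8 and Itgav below), which 45.4% of all tested genes did (22.8% above and 22.5% below). In counts from bulk sorted cells, a change within cells cannot be told apart from a change in the share of cells that carry the transcript.

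**Figure D1:**
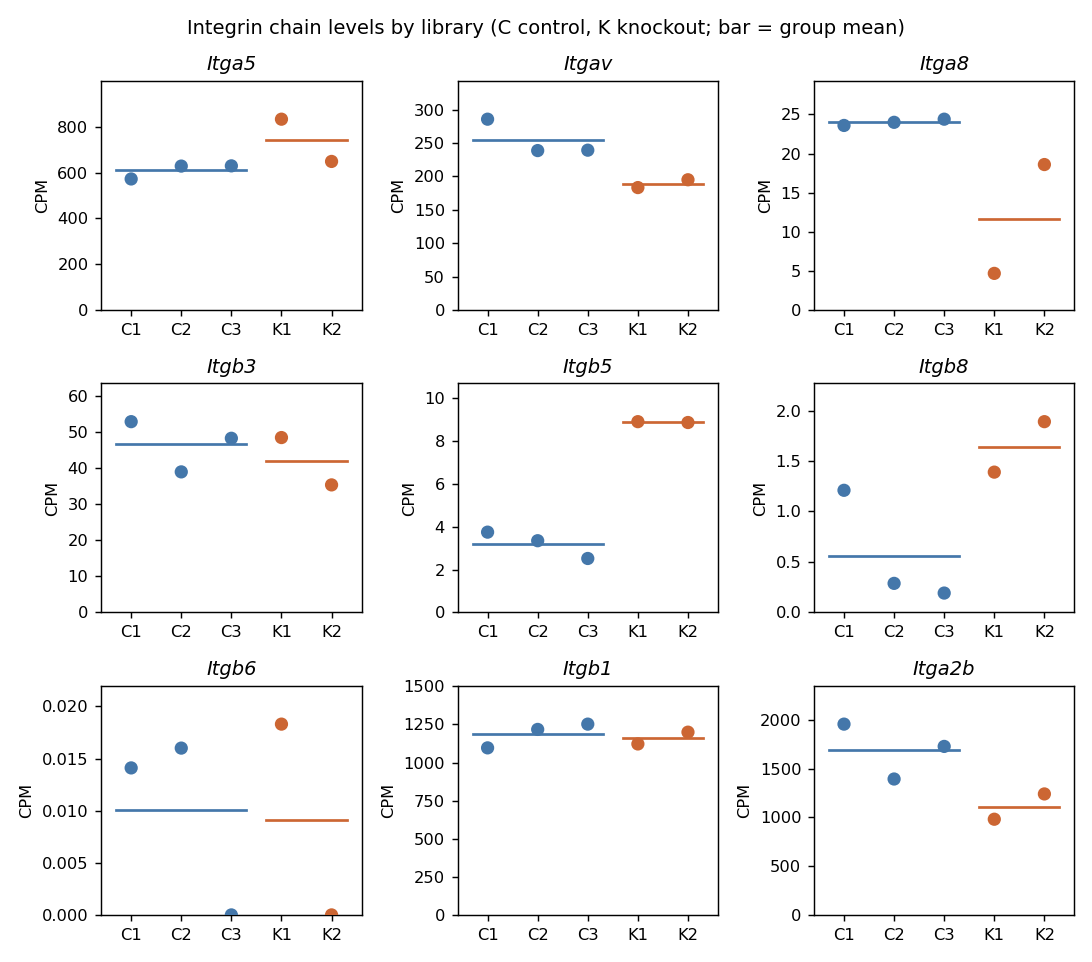
CPM (vertical axes, linear from 0) of the 7 RGD-binding chains and of Itgb1 and Itga2b in each library (horizontal axis; C1 to C3, controls; K1 and K2, knockouts); lines mark the group means. The Itgb5 panel shows both knockouts at about 8.9 CPM above 3 controls at 2.52 to 3.75 CPM, and the Itga8 panel shows the knockouts apart from each other at 4.68 and 18.6 CPM.

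Itgb5 (ENSMUSG00000022817, mm10 chromosome 16, 33829665 to 33949338, plus strand) encodes the beta chain of a vitronectin receptor formed with Itgav. Its level was 3.75, 3.35 and 2.52 CPM in controls 1, 2 and 3 and 8.91 and 8.87 CPM in knockouts 1 and 2, from 131 to 266 reads in controls and 488 and 516 reads in knockouts. Both knockouts lay above every control, and they differed from each other by less than the controls did. The log2 fold change was 1.47 ± 0.21 (SE; 95% interval 0.98 to 1.96; Benjamini-Hochberg adjusted p = 0.017, edgeR quasi-likelihood test). It stood at 1.46 without knockout 1 and at 1.47 without knockout 2. With 1 knockout library left, the spread comes from the controls alone, so only the size is read from such fits. The call was lost without control 2 (edgeR adjusted p = 0.061) and without control 3 (1.32, edgeR adjusted p = 0.079), and the value ran from 1.32 to 1.60 as each library was left out. The share of all genes called was 1.74% without control 1, 1.12% without control 2 and 0.0705% without control 3, and 10.4% without either knockout. The summed blood endothelial markers stood at 2716 to 3010 CPM in controls, 3195 CPM in knockout 1 and 4122 CPM in knockout 2. Plvap, which was not called, made up most of this sum (knockouts 1 and 2: 2787 and 3628 CPM). Among the called blood endothelial markers, Gpihbp1 (17.9 and 16.3 CPM), Aqp7 (5.72 and 4.97), Sox17 (4.04 and 4.71) and Ly6a (22.9 and 26.5) differed little between the knockouts. Cd34 (63.3 and 80.5 CPM), Emcn (50.8 and 74.3), Ly6c1 (14.9 and 22.3) and Vwf (14.5 and 8.49) differed more in relative terms. The summed fibroblast and mural markers were apart in the knockouts as given above, and Itgb5 was at nearly the same level in both. The part of these cells in the Itgb5 level was not tested.

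The genes whose centred log2 CPM over the 5 libraries lay nearest to that of Itgb5, out of 10730 with a mean log2 CPM of at least 1, were Plekhb1, Vwa1 and Serpind1. Plekhb1 encodes a protein with a pleckstrin homology domain and stood at 10.2, 8.99 and 6.81 CPM in controls and 21.5 and 21.6 CPM in knockouts. Vwa1, which encodes a matrix protein of basement membranes, stood at 38.9, 30.3 and 28.1 CPM in controls and 87.2 and 95.4 CPM in knockouts. Serpind1, which encodes the thrombin inhibitor heparin cofactor, stood at 1.62 to 2.41 CPM in controls and 4.76 to 4.86 CPM in knockouts. The nearness is a Euclidean distance (0.16, 0.23 and 0.33) over 5 libraries and is given as a description.

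Start-site windows of the 3 chains with the clearest or most uneven differences are shown because they let the called chain be set beside chains with lower values. Sequences are RefSeq windows on GRCm38.p6, the assembly behind mm10, from 250 bases before to 50 bases after the start site, and 6 of the 7 chains had one (Itgb3 did not match). The windows are Itgb5 at chr16:33829415-33829714 (plus strand), Itgav at chr2:83724147-83724446 (plus strand) and Itga8 at chr2:12301895-12302194 (minus strand), written 5′ to 3′ along the gene. Capitals mark GGGCGG, the Sp1 letters, which read CCGCCC where the match is on the reverse strand.
Itgb5: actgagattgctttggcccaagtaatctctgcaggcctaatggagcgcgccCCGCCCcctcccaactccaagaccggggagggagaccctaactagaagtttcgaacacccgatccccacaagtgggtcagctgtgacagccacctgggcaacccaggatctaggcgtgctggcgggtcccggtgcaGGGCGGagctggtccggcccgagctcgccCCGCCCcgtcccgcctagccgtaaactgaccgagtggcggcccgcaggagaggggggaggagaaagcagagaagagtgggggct
Itgav: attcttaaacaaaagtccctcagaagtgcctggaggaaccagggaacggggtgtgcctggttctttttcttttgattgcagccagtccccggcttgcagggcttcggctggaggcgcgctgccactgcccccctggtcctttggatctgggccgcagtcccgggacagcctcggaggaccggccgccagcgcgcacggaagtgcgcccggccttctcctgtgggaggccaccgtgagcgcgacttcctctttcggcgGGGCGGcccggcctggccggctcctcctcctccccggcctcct
Itga8: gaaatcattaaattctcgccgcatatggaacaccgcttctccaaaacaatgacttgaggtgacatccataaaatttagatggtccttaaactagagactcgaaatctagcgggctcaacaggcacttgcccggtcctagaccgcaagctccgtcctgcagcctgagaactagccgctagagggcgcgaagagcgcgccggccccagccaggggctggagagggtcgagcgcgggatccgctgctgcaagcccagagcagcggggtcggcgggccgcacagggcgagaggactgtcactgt
The Itgb5 window held 3 copies of GGGCGG, at positions -199, -63 and -34 from the start site (the first and last on the reverse strand), the Itgav window 1 copy and the Itga8 window 0. The windows not printed held 2 copies for Itga5, which did not pass, and 0 for Itgb8, whose log2 fold change was 1.52, and for Itgb6. Among all 32851 windows of this length 35.7% held at least 1. CAGAC (a SMAD motif), TGANTCA (AP-1), CCGGAA (ETS), TATAAA (the TATA box) and the NF-kB consensus, each searched on both strands, were at 0 in the 3 printed windows, and 49.6%, 7.81%, 14.9%, 13.6% and 4.51% of all windows held them. CAGAC was present in the windows of Itga5 (2 copies), Itgb8 (1) and Itgb6 (1). GC content was 65.7% for Itgb5, 67.3% for Itgav and 59% for Itga8, against a median of 52.7% over all windows. A match describes the letters in the window and not binding.

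Itgav (ENSMUSG00000027087, chromosome 2, 83724397 to 83806916, plus strand), the shared alpha chain of the vitronectin-binding pairs, stood at 286, 239 and 239 CPM in controls and 183 and 195 CPM in knockouts. Both knockouts lay below every control. Itgav had a log2 fold change of -0.43 ± 0.11 (SE; 95% interval -0.69 to -0.16), which did not pass over all genes (Benjamini-Hochberg adjusted p = 0.066, edgeR quasi-likelihood test). DESeq2 called it (log2 fold change -0.43, DESeq2 adjusted p = 0.0068), as it did 17.1% of all tested genes. With no filter on low counts it was called as well (-0.44, edgeR adjusted p = 0.04), as were 5.91% of genes. When exon length and GC content were corrected for, it stood at -0.25 (edgeR adjusted p = 0.21) and 5.46% of genes were called. Of its exon bases, 5.9% are shared with Gm13684 on the opposite strand, which had 111 to 207 reads a library, and without strand the reads of the pair cannot be separated.

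Itga5 (ENSMUSG00000000555, chromosome 15, 103344286 to 103366763, minus strand), the fibronectin receptor alpha chain, was the most abundant of the 7 per length. It stood at 572, 628 and 629 CPM in controls and at 833 and 648 CPM in knockouts. Knockout 1 lay well above the other libraries and knockout 2 just above the highest control. Its log2 fold change was 0.28 ± 0.13 (SE; 95% interval -0.03 to 0.59; Benjamini-Hochberg adjusted p = 0.22, edgeR quasi-likelihood test), 0.08 without knockout 1 and 0.45 without knockout 2. Itgb1, its partner, stood at 1096, 1217 and 1252 CPM in controls and 1122 and 1199 CPM in knockouts, and both knockouts lay within the range of the controls. The log2 fold change of Itgb1 was -0.03 ± 0.11 (SE; 95% interval -0.29 to 0.22; Benjamini-Hochberg adjusted p = 0.87, edgeR quasi-likelihood test), and its sign changed without control 3 (0.00) and without knockout 1 (0.01).

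Itga8 (ENSMUSG00000026768, chromosome 2, 12106632 to 12301922, minus strand), the nephronectin receptor alpha chain, had the most even controls and the most uneven knockouts of the 6 tested chains. It stood at 23.6, 24.0 and 24.4 CPM in controls, 4.68 CPM in knockout 1 and 18.6 CPM in knockout 2, from 256 and 1083 reads in the knockouts. Both knockouts lay below every control, knockout 1 by much the larger margin. As a log2 fold change this was -1.04 ± 0.49 (SE; 95% interval -2.21 to 0.12; Benjamini-Hochberg adjusted p = 0.23, edgeR quasi-likelihood test). It was -0.37 without knockout 1 and -2.36 without knockout 2, so 1 library decides its size. Fibroblasts and mural cells also express Itga8, and the summed level of their 15 other markers was highest in knockout 1, where Itga8 was lowest. Of these markers 10 were highest in that library, while Rgs5 was lowest there, at 43.8 CPM; their part in its level was not tested. Of its exon bases, 5% are shared with E030013I19Rik on the opposite strand, which had 1 to 18 reads a library.

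Itgb3 (ENSMUSG00000020689, chromosome 11, 104608000 to 104670476, plus strand) pairs with Itgav as a receptor of vitronectin and osteopontin and with Itga2b as the platelet fibrinogen receptor. It stood at 52.8, 38.9 and 48.2 CPM in controls and 48.4 and 35.3 CPM in knockouts, and the groups overlapped. Knockout minus control, the log2 fold change was -0.16 ± 0.18 (SE; 95% interval -0.58 to 0.26; Benjamini-Hochberg adjusted p = 0.63, edgeR quasi-likelihood test), -0.41 without knockout 1 and 0.05 without knockout 2. Itga2b stood far higher, at 1958, 1394 and 1729 CPM in controls and 982 and 1241 CPM in knockouts, and both knockouts lay below every control. The log2 fold change of Itga2b was -0.61 ± 0.18 (SE; 95% interval -1.03 to -0.19) and did not pass (Benjamini-Hochberg adjusted p = 0.085, edgeR quasi-likelihood test), whereas DESeq2 called it (-0.61, DESeq2 adjusted p = 0.007). Platelet genes other than these chains were low: summed over 9 markers they stood at 45.0 to 55.9 CPM in controls and 16.1 to 20.8 CPM in knockouts. Of these 9, Gp6 was at 0 reads in every library and 6 had a mean under 1 CPM, and Clec1b, Pf4 and Gp1ba were the highest.

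Itgb8 (ENSMUSG00000025321, chromosome 12, 119158022 to 119238802, minus strand) was near the low end of detection. It had 86, 18 and 10 reads in controls 1, 2 and 3 and 76 and 110 reads in knockouts 1 and 2, which is 1.21, 0.288 and 0.192 CPM against 1.39 and 1.89 CPM. Control 1 stood close to the knockouts and apart from the other controls. The log2 fold change was 1.52 ± 0.74 (SE; 95% interval -0.24 to 3.27; Benjamini-Hochberg adjusted p = 0.24, edgeR quasi-likelihood test) and 2.75 without control 1 (edgeR adjusted p = 0.06). The epithelial markers summed to 36.7 CPM in control 1 and to 16.2 and 18.3 CPM in the other controls. They summed to 54.5 CPM in knockout 1 and to 15.1 CPM, the lowest of the 5 libraries, in knockout 2, where Itgb8 was highest. Of these 14 markers 8 had a mean under 1 CPM. Of the 10 tested, 1 was called higher and 1 lower (20% called, against 7.24% of all tested genes). Epcam, outside the naming rule, rose from 1.75, 0.993 and 1.66 CPM in controls to 4.33 and 5.09 CPM in knockouts. Ehf fell from 16.6, 6.84 and 6.99 CPM to 1.26 and 0.138 CPM. The part of epithelial cells in the Itgb8 level was not tested.

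Itgb6 (ENSMUSG00000026971, chromosome 2, 60598292 to 60722643, minus strand), a beta chain typical of epithelium, had 1, 1 and 0 reads in controls and 1 and 0 reads in knockouts and was not tested. A count of 0 allows up to 3 reads, or 0.0577 CPM in control 3 and 0.0516 CPM in knockout 2, so a difference was not detectable at this depth. These limits cover counting error only, because copies made by PCR were not marked and one molecule can give several reads.

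**Figure D2:**
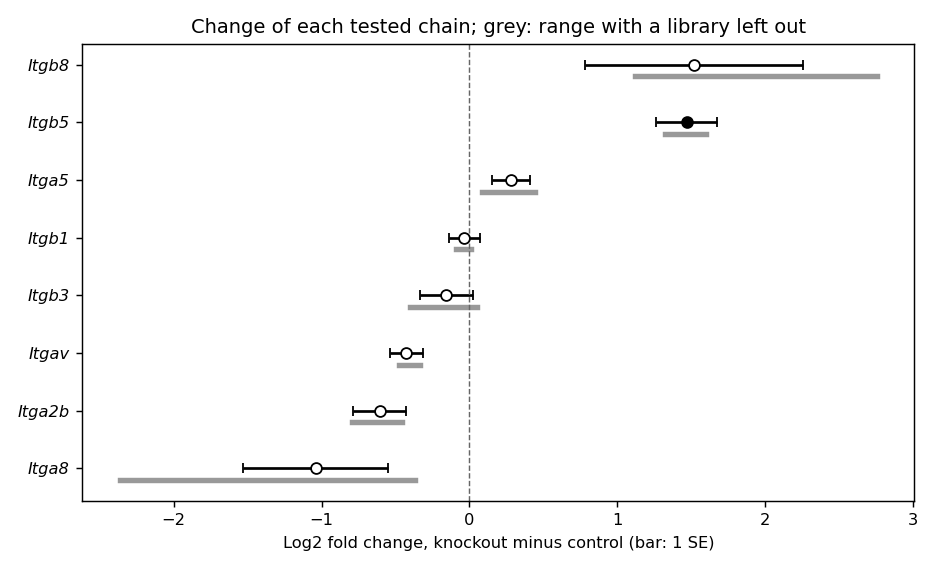
Log2 fold change, knockout minus control (horizontal axis), of the 6 tested chains and of Itgb1 and Itga2b (rows), with bars of 1 SE, filled where the adjusted p was under 0.05, and grey bars for the range when each library was left out in turn. Itgb5 is the filled point at 1.47 with a narrow grey range, while Itga8 and Itgb8 have wide ranges (-2.36 to -0.37 and 1.12 to 2.75).

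Levels of different chains were compared per length, as CPM per kb of merged exons. In controls Itga2b (310.5 ± 51.9 CPM per kb, SD, n = 3) and Itgb1 (291 ± 20.0) were the highest and overlapped. Itga5 followed at 124 ± 6.64, Itgav at 23.7 ± 2.51, Itgb3 at 7.90 ± 1.21, Itga8 at 3.26 ± 0.0545, Itgb5 at 0.902 ± 0.176 and Itgb8 at 0.051 ± 0.0509 CPM per kb. From Itgb1 down to Itgb8, no neighbours in this order overlapped over the 5 libraries except Itga8 and Itgb5. In knockout 1 Itgb5 (2.51 CPM per kb) stood above Itga8 (0.635), and in knockout 2 both stood near 2.5 CPM per kb. Measured on the longest annotated transcript in place of merged exons the order of control means was the same.

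**Figure D3:**
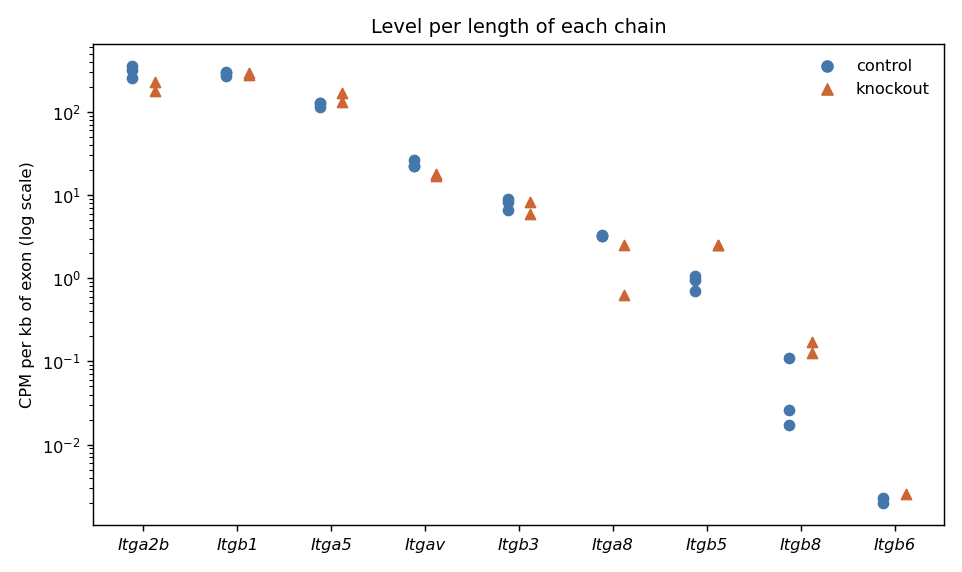
Level per length (vertical axis, CPM per kb of merged exon, log scale) of the 9 chains (horizontal axis, ordered by control mean), 1 point per library (circles, controls; triangles, knockouts). Libraries with 0 reads of Itgb6 are not drawn; Itgb1 and Itga2b lie at the top and Itgb5 lies between Itga8 and Itgb8.

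Among the 5 beta chains that can pair with Itgav, Itgb1 made up 96.4% to 97.5% of the level per length in controls and 96.2% to 97.1% in knockouts. Of the other 4 together, Itgb5 made up 7.98% to 12.5% in controls and 23.1% to 28.8% in knockouts. Itgb3 made up 87.2% to 91.8% in controls and 69.2% to 75.7% in knockouts. As Itgb3 and Itgb5 make up nearly all of this total, the Itgb3 share falls when Itgb5 rises and is no separate result. The Itgb3 level itself overlapped between the groups. Per 100 units of Itgb3 there were 8.70 to 14.3 of Itgb5 in controls, and 30.6 and 41.7 in the knockouts. The groups overlapped in the Itgb1 share (exact two-sided permutation p = 0.4) and did not in the Itgb5 and Itgb3 values, and with 10 arrangements of 3 and 2 libraries the exact two-sided permutation test could give no p below 0.2, which is what it gave for the Itgb5 share. Itga5 stood at 4.36 to 5.73 units per unit of Itgav in controls and at 7.24 and 9.90 in knockouts (exact two-sided permutation p = 0.2). Itga2b stood at 38.8 to 40.1 units per unit of Itgb3 in controls, at 21.9 in knockout 1 and at 38.0 in knockout 2. These are ratios of transcripts and not of paired proteins.

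**Figure D4:**
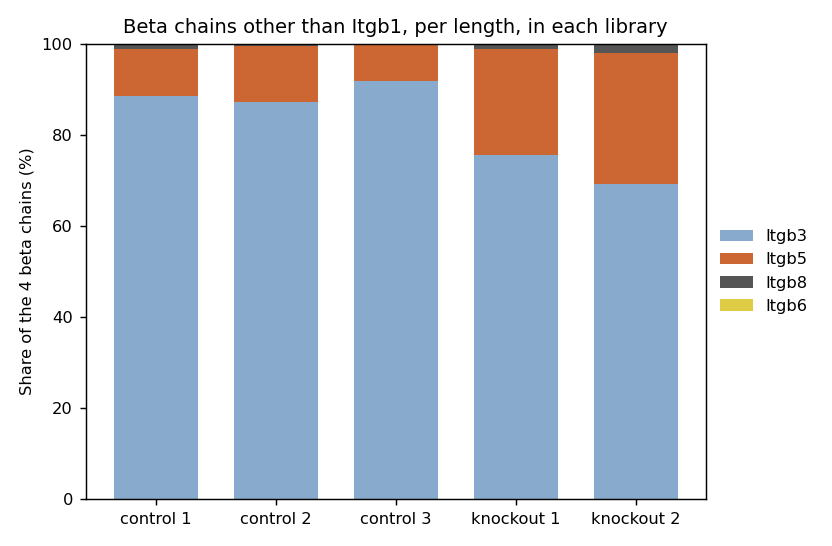
Share (vertical axis, percent, from 0) of Itgb3, Itgb5, Itgb8 and Itgb6 in the summed level per length of these 4 beta chains in each library (horizontal axis). Itgb5 takes 7.98% to 12.5% in the 3 controls and 23.1% to 28.8% in the 2 knockouts, and Itgb6 is too low to be seen.

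Ligands of these receptors went both ways. Fgb, Igfbp1 and Ibsp were not analysed here. Of 22 ligand genes chosen, 17 were tested, and 2 rose and 2 fell (23.5% called, against 7.24% of all tested genes). Their median log2 fold change was 0.02 (median of all tested genes -0.001). Vwf, which encodes von Willebrand factor, rose from 5.42 ± 0.415 CPM (SD, n = 3) to 11.5 ± 4.25 CPM (SD, n = 2), which is 1.09 ± 0.24 (SE) on the log2 scale. Ccn2, which encodes a matricellular protein, rose from 17.3 ± 2.71 to 30.3 ± 6.33 CPM (0.81 ± 0.18). The fibrillin gene Fbn1 fell from 254 ± 32.3 to 132 ± 37.7 CPM (-0.95 ± 0.19), and the basement membrane gene Nid1 fell from 1415 ± 131 to 906 ± 75.6 CPM (-0.64 ± 0.12). Their edgeR adjusted p-values were 0.043, 0.045, 0.038 and 0.032, and each lost its call without any 1 of the 3 controls. Without a control, 0.0705% to 1.74% of all genes were called. Without knockout 1 Vwf stood at 0.64 and Ccn2 at 0.58, and without knockout 2 Nid1 stood at -0.57. With a library left out, Vwf ranged from 0.64 to 1.42, Ccn2 from 0.58 to 1.01, Fbn1 from -1.28 to -0.68 and Nid1 from -0.74 to -0.56. Corrected for exon length and GC content, Fbn1 (-0.73, edgeR adjusted p = 0.052) and Ccn2 (0.75, edgeR adjusted p = 0.064) did not pass. Summed over 12 blood endothelial markers, Vwf among them, levels were higher in both knockouts, as given above, and their part in the Vwf change was not tested.

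The named ligands of single chains were given as values. Npnt, which encodes nephronectin, the Itga8 ligand, stood at 42.3, 24.1 and 26.4 CPM in controls and 9.50 and 16.9 CPM in knockouts, with both knockouts below every control. Its log2 fold change was -1.23 ± 0.33 (SE, edgeR adjusted p = 0.068). Fn1, which encodes fibronectin, stood at 663, 870 and 580 CPM in controls and 521 and 358 CPM in knockouts (-0.68 ± 0.22, SE, edgeR adjusted p = 0.11). Vtn, which encodes vitronectin, stood at 1.56 to 2.89 CPM in controls and 2.03 to 2.36 CPM in knockouts, where the groups overlapped (0.02 ± 0.32, SE). Npnt, Fn1 and Vtn lie outside the naming rule, the 4 genes of smallest p in a list, and were picked with their values known. Tnc, which encodes tenascin C, stood at 4805 to 5849 CPM in controls and 3845 to 3920 CPM in knockouts (-0.48 ± 0.13, SE, edgeR adjusted p = 0.073); it too lies outside the rule.

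Latent TGF-beta is held in the matrix by LTBP proteins or on the cell surface by GARP, the product of Lrrc32, and is released by RGD-binding integrins. Of 8 such genes, 1 rose and 1 fell (25% called, against 7.24% of all tested genes), with a median log2 fold change of 0.10. Lrrc32 rose from 453, 494 and 465 CPM in controls to 1047 and 991 CPM in knockouts (log2 fold change 1.11 ± 0.09, SE, edgeR adjusted p = 0.0095). Ltbp1 fell from 354, 401 and 389 CPM to 182 and 202 CPM (-0.99 ± 0.10, SE, edgeR adjusted p = 0.0099). For both genes the knockouts lay far outside the range of the controls. Nrros, a holder of latent TGF-beta on myeloid cells, stood at 77.2 to 83.2 CPM in controls, 32.9 CPM in knockout 1 and 62.6 CPM in knockout 2 (-0.75 ± 0.25, SE, edgeR adjusted p = 0.11). The Nrros value was -0.37 without knockout 1 and -1.30 without knockout 2. Ltbp3 had a log2 fold change of 0.18 ± 0.09 (SE), and was called at 0.36 once exon length and GC content were corrected for (edgeR adjusted p = 0.0498). Without control 3, where 0.0705% of all genes were called, Lrrc32 and Ltbp1 lost their calls at nearly the same size. The values were 1.10 for Lrrc32 (edgeR adjusted p = 0.068) and -0.98 for Ltbp1 (edgeR adjusted p = 0.07).

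Of 10 genes known to respond to TGF-beta, 2 rose and 2 fell (40% called, against 7.24% of all tested genes). Their median log2 fold change was 0.22, which was 0.0852 without control 1 and up to 0.33 without control 3. Ltbp2 fell from 1526 ± 167 to 560 ± 145 CPM (-1.45 ± 0.19, SE), and Tgfbi, which encodes an RGD-bearing matrix protein, fell from 1154 ± 64.2 to 620 ± 184 CPM (-0.90 ± 0.19). Pmepa1, an inhibitor of TGF-beta signalling, rose from 17.7 ± 2.61 to 28.5 ± 0.143 CPM (0.69 ± 0.14), and Ccn2 is the other that rose. The edgeR adjusted p was 0.015 for Ltbp2, 0.039 for Tgfbi and 0.036 for Pmepa1. Ltbp2 lost its call without control 3 (-1.45), where 0.0705% of all genes were called. Tgfbi (-0.93, -0.85 and -0.91) and Pmepa1 (0.59, 0.80 and 0.68) lost theirs without each control. Without knockout 1 Pmepa1 stood at 0.68.

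Inside the cell, talins and kindlins switch integrins on and adaptor proteins tie them to actin. Of 27 activators and adaptors, 26 were tested, 2 rose and 3 fell (19.2% called, against 7.24% of all tested genes). Their median log2 fold change was 0.02. Tln1, which encodes talin, fell from 523 ± 36.1 CPM (SD, n = 3) to 338 ± 40.2 CPM (SD, n = 2), which is -0.63 ± 0.12 (SE) on the log2 scale. Fermt3, the kindlin gene of blood cells, fell from 33.5 ± 5.47 to 16.2 ± 0.145 CPM (-1.05 ± 0.15), while Fermt2, the widely expressed kindlin gene, stood at 161 to 206 CPM in controls and 175 and 199 CPM in knockouts (0.01 ± 0.13). The tensin gene Tns3 fell from 71.5 ± 10.3 to 38.4 ± 5.15 CPM (-0.90 ± 0.15). Tgfb1i1, which encodes the paxillin relative Hic-5, rose from 27.1 ± 2.22 to 52.0 ± 6.75 CPM (0.94 ± 0.12). Lims2, which encodes a PINCH adaptor, rose from 0.771 ± 0.251 to 4.71 ± 0.387 CPM (2.60 ± 0.33). The edgeR adjusted p-values were 0.029 for Tln1, 0.019 for Fermt3, 0.023 for Tns3 and 0.014 for both Tgfb1i1 and Lims2. Without control 3, where 0.0705% of all genes were called, all 5 calls were lost. Lims2 then stood at 2.36, Tgfb1i1 at 0.91, Fermt3 at -1.03, Tns3 at -0.93 and Tln1 at -0.66. Tln1 and Tns3 also lost theirs without control 1 (-0.57 and -0.77) and control 2 (-0.65 and -0.98), and Fermt3 without control 1 (-0.94). The correction for exon length and GC content also ended the calls of Tln1 (-0.44, edgeR adjusted p = 0.053) and Tns3 (-0.67, edgeR adjusted p = 0.058). Tln1 and Fermt2 likewise lie outside the naming rule and were picked with their values known. Fermt3 is also expressed by leukocytes and platelets. The platelet markers summed to a lower level in knockouts, as given above. Of 14 tested macrophage and osteoclast-type genes, 2 fell and 1 rose (21.4% called, against 7.24% of all tested genes). Csf1r, the receptor of a macrophage growth factor, stood at 1.11 to 1.73 CPM in controls and 0.138 and 0.365 CPM in knockouts. Mpeg1 stood at 2.21 to 3.67 CPM and 0.516 and 0.621 CPM, and Adgre1 was at 0 in every control and at 0.274 and 0.344 CPM in knockouts. These 3 lie outside the naming rule too. The whole list without Itgb3, 16 markers led by Nfatc1, Ctss and Ctsk, summed to 1234 to 1347 CPM in controls and 1448 to 1624 CPM in knockouts. Nfatc1 made up most of this sum, at 947.4 to 1097.5 CPM in controls and 1425.1 and 1126.5 CPM in knockouts. Of the 14 tested genes, Itgb3 among them, 10 had a log2 fold change below 0 and 4 above. The part of these cells in the levels of Fermt3 and Nrros was not tested.

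Signalling and transport genes downstream of integrins were called at a share near the 7.24% of all tested genes, 5% and 7.14%. Of 20 kinases and scaffolds, 1 rose and 0 fell, with a median log2 fold change of -0.02. At an unadjusted edgeR p under 0.05, where 26.4% of all genes lay, 5 were higher and 3 lower, and DESeq2, which called 17.1% of all genes, called 3 higher and 3 lower. Bcar1, which encodes the adhesion scaffold p130Cas, rose from 164 ± 33.4 to 290 ± 28.2 CPM (0.83 ± 0.18, SE, edgeR adjusted p = 0.042). Its call was lost without each control, and the value ran from 0.67 to 0.92 as each library was left out. Dock1 (-0.42 ± 0.12), Cav1 (0.61 ± 0.17) and Arhgef6 (-0.41 ± 0.13) did not pass. Without knockout 1 Dock1 stood at -0.59 and Arhgef6 at -0.61. Of 16 integrin trafficking genes, 14 were tested, 1 rose and 0 fell, with a median log2 fold change of 0.16. At an unadjusted edgeR p under 0.05, 3 were higher and 2 lower, and DESeq2 called 3 higher and 1 lower. Arf6, a small GTPase of integrin recycling, rose from 213 ± 20.8 to 302 ± 6.24 CPM (0.50 ± 0.11, SE, edgeR adjusted p = 0.041). The call of Arf6 was lost without each control (0.43, 0.55 and 0.54), and its value was 0.48 without knockout 2. After the correction for exon length and GC content Arf6 stood at 0.35 and did not pass. Rab4a, which returns integrins to the surface by a short route, stood at 5.14 to 9.49 CPM in controls and 3.36 and 3.52 CPM in knockouts (-1.15 ± 0.28, SE, edgeR adjusted p = 0.057), and it passed without control 1 (-1.37). Numb (0.30 ± 0.09) and Rab11b (0.27 ± 0.08), other genes of membrane traffic, did not pass. The calls lost without a control were lost where 0.0705% to 1.74% of all genes were called.

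**Figure D5:**
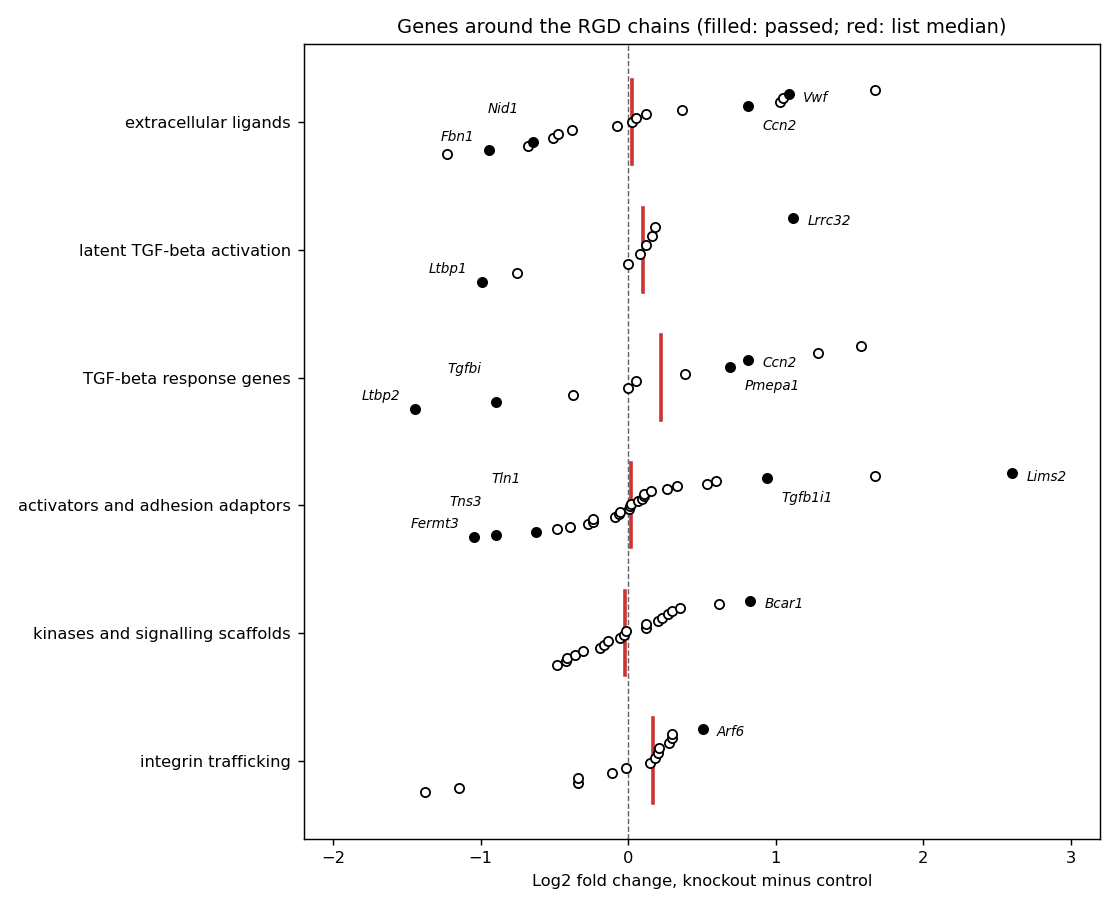
Log2 fold change, knockout minus control (horizontal axis), of each tested gene in 6 lists around the RGD-binding chains (rows), filled and named where the adjusted p was under 0.05, with the list median in red. The medians lie between -0.02 and 0.22, and the named genes lie on both sides of 0 in 4 of the lists.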

How the data were processed

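The authors deposited 1 table of read counts per gene for 5 libraries, 3 control and 2 knockout, as whole numbers that were not normalized, per the file headers and values. Reads were handled with HTSeq 0.6.1, TopHat2 2.0.14, Bowtie2 2.1.0 and bcl2fastq 2.17.1.14 on mm10, per the submitters' processing notes. Settings, gene annotation and the handling of multiply matching reads are not given in the sources used. Per the labels' protocols libraries were amplified from little RNA without molecular identifiers or strand.

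Counts were filtered (filterByExpr, minimum count 10), scaled by TMM and tested in R 4.3.3 with edgeR 4.0.16 (robust quasi-likelihood, no covariates) and Benjamini-Hochberg adjustment over 15874 genes at 0.05. CPM per kb used merged exons of GENCODE gene models. Alternatives were other scalings and filters, DESeq2 1.42.0, limma 3.58.1 (voom), a replicate block, an offset for length and GC content, a threshold of 0.1 and leaving out each library.

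By rule the text names all 7 chains and both partners, up to 4 genes of smallest p from each pathway list, up to 3 markers from each marker list and the 3 genes nearest to a called chain. Genes marked above as outside the rule are exceptions. So are the lymphatic markers Prox1 and Ccl21a and the blood endothelial markers Gpihbp1, Aqp7, Sox17, Ly6a, Cd34 and Ly6c1, which were picked with their values known. Members and lists were chosen with earlier results of these data known.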

Additional observations from a re-analysis of the deposited data

How the results depend on the processing

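Over all genes, DESeq2 called 1254 higher and 1466 lower, a threshold of 0.1 called 1188 and 1358, the length and GC offset called 474 and 392, and leaving out a library called 2 to 784 higher and 9 to 1125 lower. With a replicate block edgeR called 0 higher and 0 lower (2808 genes at an unadjusted p under 0.05), and with the block and the offset 0 and 2. Labels do not say that the numbers pair libraries, and same-numbered libraries deviated together with correlations of 0.05 and -0.05. Under the block Itgb5 stood at 1.33, and with the offset too at 1.28, so 0 RGD-binding chains were called higher in either; Itgb1, never called, turned to 0.006 and 0.0124. One chain, Itgav, was called lower with no filter (-0.44), by DESeq2 (-0.43) and at a threshold of 0.1 (-0.43). Leaving out a control gave 0 to 1 chain higher and 0 lower. As each library was left out, log2 fold changes ran from 1.32 to 1.60 for Itgb5, -2.36 to -0.37 for Itga8, -0.41 to 0.0493 for Itgb3 and -0.0879 to 0.0077 for Itgb1. List medians ran from -0.44 to -0.22 for partner chains, -0.30 to 0.12 for ligands, 0.0299 to 0.17 for latent TGF-beta genes, 0.0852 to 0.33 for TGF-beta response genes, -0.0362 to 0.0661 for adaptors and -0.052 to 0.13 for kinases. On the longest transcript, control levels were 493 CPM per kb for Itga2b, 312 for Itgb1, 138 for Itga5, 36.1 for Itgav and 4.13 for Itga8. With 2 knockout libraries, 1 library can decide a value, and Itgb6 and Itgb8 are limited by few reads.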
